A study of Mus musculus with 8 samples.

Results

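The genes described here are 9 genes of the kinin and angiotensin systems, out of 54532 in the deposited table: the peptide precursors Kng1, Kng2 and Agt, the peptidases Ace and Lnpep, and the receptors Bdkrb1, Bdkrb2, Agtr1a and Agtr2. Each was found by its gene name, and 1 row matched each name. The genes were chosen by their FPKM in the TG and WT libraries, after these had been compared, so their own differences between the genotypes are given as a description, without a test. Brown adipose tissue, a fat depot that produces heat, came from 4 mice labelled CLCF1-ATG (TG) and 4 wild-type mice (WT), numbered 1, 2, 3 and 5 in each genotype, and its RNA was sequenced. CLCF1 belongs to the interleukin-6 family of cytokines; the labels give neither the promoter of the transgene nor the strain, age or sex of the mice, and no treatment. The study asked how CLCF1 impairs brown fat. Values are FPKM, the authors' fragments scaled by gene length and by library. Log2 differences were taken as TG minus WT after adding 1 to each FPKM, which makes the differences of weakly expressed genes look smaller.

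Kininogens are secreted proteins from which kallikreins cut bradykinin, a short peptide that widens vessels through the constitutive B2 receptor (Bdkrb2) and, in inflamed tissue, the inducible B1 receptor (Bdkrb1). Angiotensinogen, the product of Agt, is cut by renin and then by angiotensin-converting enzyme (Ace) to angiotensin II, which acts on the receptors encoded by Agtr1a and Agtr2. The same converting enzyme degrades bradykinin, which joins both systems. Brown fat of mice is known to make both precursors, and to release kininogen when its heat production is stimulated.

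Kng2 and Kng1 are a mouse gene pair on chromosome 16 whose sequences bear on what the FPKM of either can show. Kng2 (ENSMUSG00000060459, chromosome 16, 22985854 to 23029482, minus strand) and Kng1 (ENSMUSG00000022875, chromosome 16, 23057865 to 23082078, plus strand) lie 28.4 kb apart on opposite strands; these coordinates are those of the deposited table, on mm10 per the submitters' processing notes. Their longest reading frames, of 644 codons in Kng2 and 661 in Kng1, were identical at 1791 of 1929 aligned bases, or 92.8%, in the GENCODE M21 transcripts. Of the distinct 50-base stretches of their transcripts, 557 were shared, which is 19.4% of those of Kng2 and 17.2% of those of Kng1. A fragment whose reads lie wholly within shared sequence cannot be assigned to either gene by that sequence. Below are the 27 bases that encode bradykinin in each, in exon 10 of the transcripts with the longest reading frames, at chr16:22988281-22988307 on the minus strand in Kng2 and at chr16:23078989-23079015 on the plus strand in Kng1. The capital marks the only base that differs, T12C when Kng1 is read first and bases are counted from 1 at the 5′ end of the stretch; the encoded residues differ at 0 positions.
Kng2: aggcctccaggCttttctcctttccgg
Kng1: aggcctccaggTttttctcctttccgg

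Agt (ENSMUSG00000031980, chromosome 8, 124556534 to 124569706, minus strand) has no such copy: 0 of its 1842 distinct 50-base stretches occurred in another gene. The 30 bases that encode angiotensin I, the substrate of the converting enzyme, lie in its exon 2 at chr8:124564450-124564479 on the minus strand.
Agt: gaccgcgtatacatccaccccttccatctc

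The promoters of both precursors are shown because they had the largest differences of the 9 genes between the genotypes, in opposite directions. The sequences are RefSeq's for GRCm38.p6, 300 bases each around the annotated start site, Kng2 at chr16:23029052-23029351 and Agt at chr8:124569657-124569956, both on the minus strand and printed 5′ to 3′. The Kng2 window lies wholly inside the Kng2 gene of the deposited table, which begins at 23029482 on this strand. Sequence upstream of that start was not searched for Kng2. The Agt window spans the start of Agt in the deposited table, at 124569706. Capitals mark a match to TTCNNNGAA, the paired element that STAT factors bind, which reads the same on both strands. RefSeq's table held 7 promoters of 6 of the 9 genes.
Kng2 promoter: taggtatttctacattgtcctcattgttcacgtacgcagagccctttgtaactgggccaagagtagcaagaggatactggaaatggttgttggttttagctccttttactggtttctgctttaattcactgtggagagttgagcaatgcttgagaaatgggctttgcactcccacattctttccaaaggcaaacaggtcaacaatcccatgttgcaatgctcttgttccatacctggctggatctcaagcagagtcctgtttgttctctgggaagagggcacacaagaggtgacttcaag
Agt promoter: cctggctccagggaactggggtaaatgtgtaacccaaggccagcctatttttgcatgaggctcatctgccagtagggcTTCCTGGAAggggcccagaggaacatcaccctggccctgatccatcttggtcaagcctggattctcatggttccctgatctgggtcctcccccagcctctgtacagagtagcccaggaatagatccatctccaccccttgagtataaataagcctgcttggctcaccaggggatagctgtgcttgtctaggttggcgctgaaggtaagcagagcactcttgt
The element was found in 1 of the 7 promoters, that of Agt, where it begins at position -172 relative to the start site, against 2726 of 32851 promoters in the table, or 8.3%. The cAMP response element TGACGTCA, which is its own reverse complement, was found in 0 of the 7, against 588 promoters, or 1.79%. A match is a description of letters, and none of these data measure binding.

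Reads recovered behind the FPKM numbered 18494022 to 20183840 in TG libraries and 13734231 to 15751302 in WT libraries. Clcf1, which checks the genotype labels, stood at 78.7 to 89.9 FPKM in TG and at 0.434 to 3.40 FPKM in WT. Mitochondrial transcripts took 6.09% to 7.34% of the reads in TG and 24.1% to 37.5% in WT. In the fit across genes, limma on the 12508 genes that reached 0.5 FPKM in 4 or more libraries, with p-values adjusted by Benjamini-Hochberg, 5513 genes passed an adjusted p of 0.05, or 44.1% of those tested, with 22.3% higher and 21.8% lower in TG; the median log2 change was 0.01. Brown adipocyte markers fell, in 5 of 6 cases, and their summed level was 590 to 989 FPKM in TG and 6448 to 9085 FPKM in WT, while 4 of 5 markers shared by all adipocytes rose.

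Kng2 transcripts, which encode the kininogen that yields bradykinin, were nearly absent from TG brown fat. Kng2 had 1.30, 0.363, 0.464 and 0.973 FPKM in the TG libraries, against 32.5, 42.6, 43.4 and 27.7 FPKM in the WT libraries. All TG libraries were low and all WT libraries high: the groups did not overlap, and the lowest WT library held 21.2 times the FPKM of the highest TG library. The means were 0.776 ± 0.442 FPKM in TG and 36.5 ± 7.69 FPKM in WT (SD, n = 4 each), a TG-to-WT ratio of 0.0212 and a log2 difference of -4.41 (SE 0.235). In reads, 196 were recovered over the 4 TG libraries and 5056 over the 4 WT libraries, so counting error is small beside the difference in both. Only 5 of the tested genes had a more negative log2 change after adding 1 to each FPKM, the only setting ranked. Kng2 was chosen with this contrast known, so its rank is a description. On the scale of FPKM, 90.0% of tested genes had a higher TG mean than Kng2, and 9.95% had a higher WT mean.

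Relative to its mean, Kng2 varied more within TG: its coefficient of variation was 56.9% in TG and 21.0% in WT. The TG values rest on 21 to 85 reads a library. On the log2 scale the SDs were closer, 0.357 in TG and 0.305 in WT. TG 1 and TG 5 lay above TG 2 and TG 3. Between the genotypes, 5 of the 6 brown adipocyte markers were lower in TG, as Kng2 was. The TG-to-WT ratio of mean FPKM was 0.0322 for Dio2, which activates thyroid hormone, 0.0548 for Cidea, a lipid droplet protein, 0.0583 for Ucp1, the uncoupling protein, and 0.121 for Cox8b, a cytochrome oxidase subunit. It was 0.579 for Ppargc1a, a coactivator of mitochondrial genes, and 0.925 for Elovl3, a fatty acid elongase that did not pass (log2 change 0.62, adjusted p = 0.519). The Elovl3 ratio rests on WT 1, at 14.5 FPKM. The other WT libraries had 0.398 to 1.16 FPKM, below the 1.58 to 6.09 FPKM of the TG libraries. Among the TG libraries, TG 1 was the highest for Ucp1, Cidea, Dio2 and Elovl3, as for Kng2, and the lowest for Cox8b and Ppargc1a. Ucp1, Cidea, Dio2 and Cox8b were each higher in TG 3 than in TG 5, the reverse of Kng2. The markers' part in the level of Kng2 was not tested. In bulk tissue, fewer cells of a type and less RNA per cell cannot be told apart. Hepatocyte markers, which matter because liver is the main source of plasma kininogen, summed to 0.216 to 1.03 FPKM in TG and 0.131 to 1.44 FPKM in WT, under 0.5 FPKM in at least 5 libraries for each of the 8, and none was at 0 in all libraries. Skeletal muscle markers were highest in TG 5 and WT 2, with sums of 115.8 to 1377 FPKM in TG and 11.5 to 2446 FPKM in WT; without these 2 libraries the log2 difference of Kng2 was -4.39.

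Kng1 was at the limit of detection in both genotypes, although its reading frame is close to that of Kng2. It had 0, 0, 0 and 3 reads in the TG libraries and 0, 1, 5 and 1 reads in the WT libraries, and no library exceeded 0.0403 FPKM in TG or 0.116 FPKM in WT. The authors' counting thus put the kininogen reads of both genotypes almost wholly on Kng2. Gm6493, a pseudogene inside Kng2 on the same strand, held 56 reads in TG and 36 reads in WT.

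Agt, the angiotensin precursor, stood higher in TG on average. It had 2.68, 2.12, 2.50 and 2.88 FPKM in the TG libraries, against 1.44, 2.12, 0.636 and 0.277 FPKM in the WT libraries. The groups overlapped by a hair: TG 2 stood at 2.1224 FPKM and WT 2 at 2.1225 FPKM, while the other WT libraries lay below every TG library. The means were 2.55 ± 0.324 FPKM in TG and 1.12 ± 0.827 FPKM in WT (SD, n = 4 each), a TG-to-WT ratio of 2.28 and a log2 difference of 0.82 (SE 0.296). The spread lay in WT, where the highest library held 7.66 times the lowest, which rests on 6 reads. Over all libraries of a genotype, 439 reads were recovered in TG and 108 in WT.

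**Figure D1:**
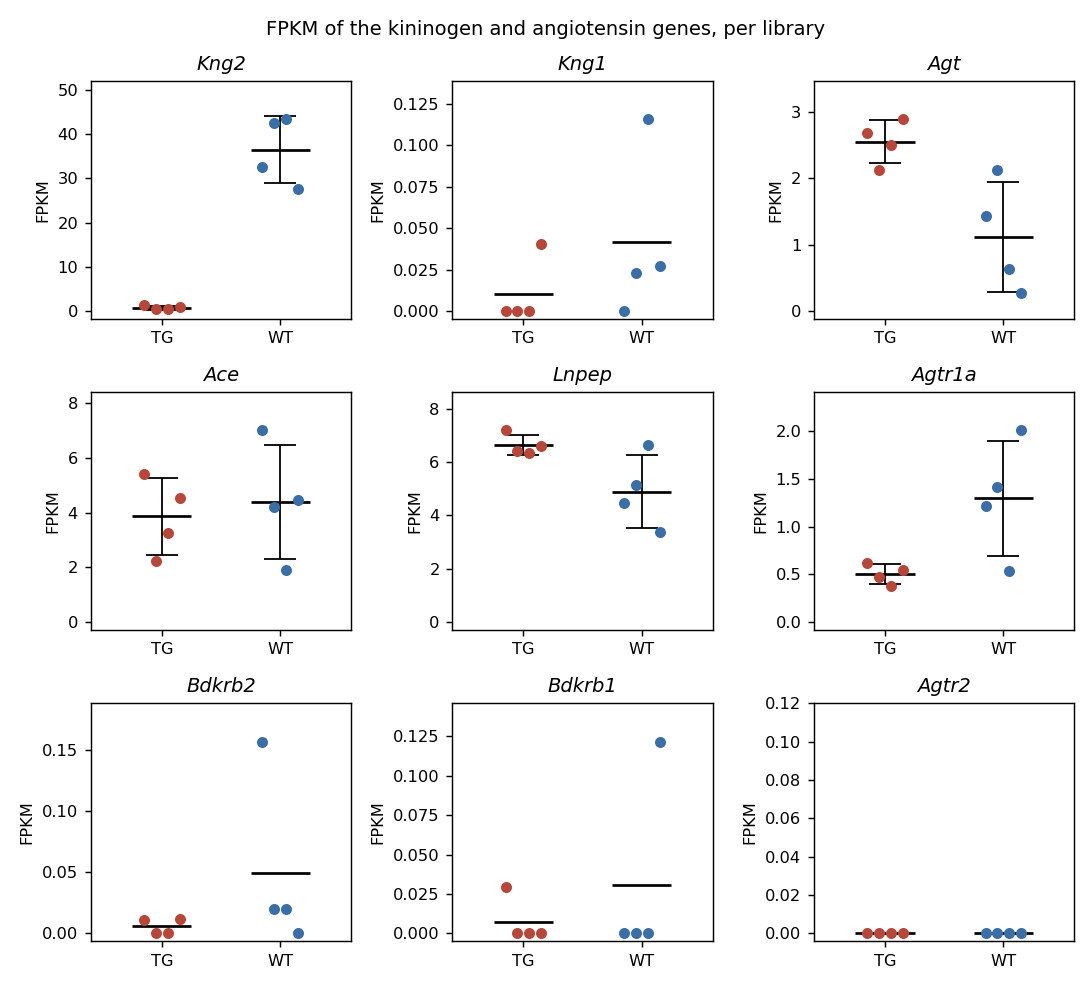
FPKM of the 9 genes in each library, 1 panel per gene with its own linear axis, TG (red) left of WT (blue); horizontal lines are means and bars the SD of 4 libraries, drawn for the 5 genes that passed the filter. The TG libraries of Kng2 sit between 0.363 and 1.30 FPKM and the WT libraries between 27.7 and 43.4 FPKM, while the groups of the other 8 genes overlap.

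The peptidases showed no such separation. Ace, the angiotensin-converting enzyme that also inactivates bradykinin (ENSMUSG00000020681, chromosome 11, 105967945 to 105989964, plus strand), had 5.42, 2.25, 3.25 and 4.55 FPKM in the TG libraries and 6.99996, 4.20, 1.91 and 4.46 FPKM in the WT libraries. The groups were interleaved, with the highest and the lowest value both in WT. The means were 3.87 ± 1.40 FPKM in TG and 4.39 ± 2.08 FPKM in WT (SD, n = 4 each), and the log2 difference of -0.11 (SE 0.371) was smaller than its error. Its sign turned without TG 2 (0.07) and without WT 1 (0.11), and with division by all recovered reads (0.23) or voom (0.31). Ace is made by endothelium, and all 7 endothelial markers fell, with sums of 22.3 to 41.7 FPKM in TG and 127.5 to 282 FPKM in WT; their part in the level of Ace was not tested.

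Lnpep encodes insulin-regulated aminopeptidase, which travels with the glucose transporter GLUT4 and binds angiotensin IV (ENSMUSG00000023845, chromosome 17, 17521410 to 17625050, minus strand). It had 7.18, 6.40, 6.35 and 6.62 FPKM in the TG libraries and 4.45, 5.12, 6.62 and 3.36 FPKM in the WT libraries. WT 3 lay within the TG range and the other WT libraries lay below it. The means were 6.64 ± 0.381 FPKM in TG and 4.89 ± 1.36 FPKM in WT (SD, n = 4 each), with a log2 difference of 0.40 (SE 0.172). The log2 difference was 0.77 after division by all recovered reads and 0.91 with voom, settings that also move the median of all genes up, to 0.32 and 0.45.

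Of the receptors, only Agtr1a passed the filter on low values. Agtr1a, the main angiotensin II receptor of rodents (ENSMUSG00000049115, chromosome 13, 30336441 to 30382867, plus strand), had 0.617, 0.475, 0.377 and 0.548 FPKM in the TG libraries and 1.22, 1.41, 0.540 and 2.01 FPKM in the WT libraries. Again WT 3 lay within the TG range, and the other 3 WT libraries lay above it. The means were 0.504 ± 0.103 FPKM in TG and 1.29 ± 0.605 FPKM in WT (SD, n = 4 each), a TG-to-WT ratio of 0.389 and a log2 difference of -0.57 (SE 0.207). These values rest on few reads, 128 over the TG libraries and 177 over the WT libraries. Its copy Agtr1b, which holds 33 of the 2922 distinct 50-base stretches of Agtr1a, was listed at 0 in all 8 libraries.

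The bradykinin receptors, neighbours on chromosome 12 that lie 7.85 kb apart, were close to 0. Bdkrb2 (ENSMUSG00000021070, chromosome 12, 105563226 to 105595237, plus strand) had 1, 0, 0 and 1 reads in the TG libraries and 7, 1, 1 and 0 reads in the WT libraries. Bdkrb1 (ENSMUSG00000041347, chromosome 12, 105603085 to 105605428, plus strand) had 1, 0, 0 and 0 reads in TG and 0, 0, 0 and 2 reads in WT. Agtr2 (ENSMUSG00000068122, chromosome X, 21484544 to 21489164, plus strand) had 0 reads in all 8 libraries, which allows a level of up to 0.00994 FPKM in TG and 0.0180 FPKM in WT by counting error alone (3 reads over a group). At this depth a difference between the genotypes was not detectable for these receptors.

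The order of the genes by mean FPKM differed between the genotypes. In TG it ran Lnpep, Ace, Agt, Kng2 and Agtr1a, of which Ace and Agt, and Kng2 and Agtr1a, had overlapping ranges. In WT it ran Kng2, Lnpep, Ace, Agtr1a and Agt, and each gene after Kng2 overlapped the next. The other 4 genes stood below these in both genotypes and overlapped each other. The filter was passed by 5 of the 9 genes. Kng2 and Agtr1a passed it through their WT libraries, since only TG 1 and TG 5 reached 0.5 FPKM among the TG libraries of each. Agt reached 0.5 FPKM in every TG library and in every WT library but WT 5. Among the 5, the fit across all genes called 3, with Agt higher and Kng2 and Agtr1a lower in TG, against a background of 44.1% of all tested genes; the groups of 1 did not overlap, against 42.6%, made up of 22.1% with TG above and 20.5% with TG below WT. The genes were chosen with this contrast known, and nothing is read from these counts.

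By library, the 5 genes did not share an order. WT 5 was the lowest WT library for Kng2, Agt and Lnpep and the highest for Agtr1a. WT 3 was the highest WT library for Kng2 and Lnpep and the lowest for Ace and Agtr1a. TG 1 was the highest TG library for Kng2, Ace, Lnpep and Agtr1a, and TG 5 for Agt. The coefficient of variation was larger in WT than in TG for Agt (12.7% in TG and 73.9% in WT), Agtr1a (20.4% and 46.7%), Ace (36.2% and 47.4%) and Lnpep (5.74% and 27.9%), and only for Kng2 was it larger in TG.

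Genes with the profiles most like that of Kng2 were sought among 10798 protein-coding tested genes, as the smallest root-mean-square difference of centred log2(FPKM + 1) over the 8 libraries. They were Gmpr (0.264), a guanosine monophosphate reductase, Cox7a1 (0.311), a cytochrome oxidase subunit of heart, muscle and brown fat, and Slc27a2 (0.353), a fatty acid transporter and acyl-CoA synthetase. Gmpr averaged 2.05 ± 0.503 FPKM in TG and 65.4 ± 21.4 FPKM in WT, Cox7a1 27.5 ± 7.05 FPKM in TG and 648 ± 139 FPKM in WT, and Slc27a2 1.47 ± 0.813 FPKM in TG and 38.3 ± 3.97 FPKM in WT (SD, n = 4 each). Like Kng2, all 3 had TG libraries far below the WT libraries. A small distance to Kng2 over all 8 libraries requires such a gap, so it is no separate result. The nearest to Agt were Dmpk (0.177), Adra1d (0.178) and Erg28 (0.189), to Agtr1a Myo10 (0.0655), Txlng (0.0656) and Pik3ip1 (0.0780), and to Lnpep Snx27 (0.0567), Ptbp1 (0.0692) and Ehbp1l1 (0.0799). Smaller values are easier to reach for a gene that varies less.

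**Figure D2:**
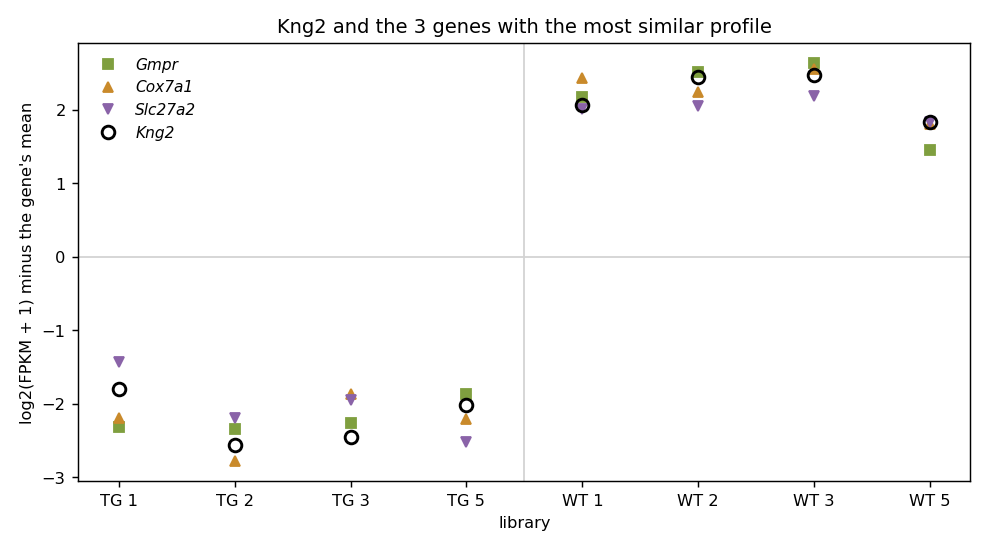
Log2(FPKM + 1) of Kng2 and the 3 genes nearest to it, each minus its own mean over the 8 libraries, by library, TG left of WT. Kng2 runs from -2.55 (TG 2) to -1.80 (TG 1) in TG and from 1.84 (WT 5) to 2.47 (WT 3) in WT. The 3 genes lie on the same side of 0 in every library, which follows from how they were chosen.

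Position was not used to choose the genes, so the surroundings of Kng2 could be tested. Within 300 kb of its ends the table lists 30 other genes, 15 of them at 0 in all libraries and 8 tested. By limma 3 of the 8 rose, 2 fell and 3 did not pass, against 22.3% and 21.8% of all tested genes. Fetub, which encodes fetuin B, a secreted protease inhibitor with cystatin domains like those of kininogen, lies 46.1 kb from Kng2 and fell: it averaged 0.545 ± 0.241 FPKM in TG and 2.31 ± 0.566 FPKM in WT, a log2 change of -1.10 (SE 0.158, adjusted p = 0.000483). St6gal1, a sialyltransferase 195.3 kb away, fell with a log2 change of -0.65 (adjusted p = 0.00989), a call lost without WT 2 and TG 5 (adjusted p = 0.0700), after division by all recovered reads (0.0929) and with voom (0.0793). On the same side of Kng2, and nearer than St6gal1, Adipoq, the gene of the adipocyte hormone adiponectin, rose to 1864 ± 220.3 FPKM in TG, against 650.3 ± 50.4 FPKM in WT, a log2 change of 1.51 (SE 0.139, adjusted p = 3.15e-05). Eif4a2, a translation initiation helicase, rose by 0.79 and Tbccd1, a centrosomal protein, by 0.50 on the log2 scale (adjusted p = 0.00048 and 0.00654). Dnajb11 (0.18), Rfc4 (0.12) and AC125396.2 (0.29) did not pass.

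**Figure D3:**
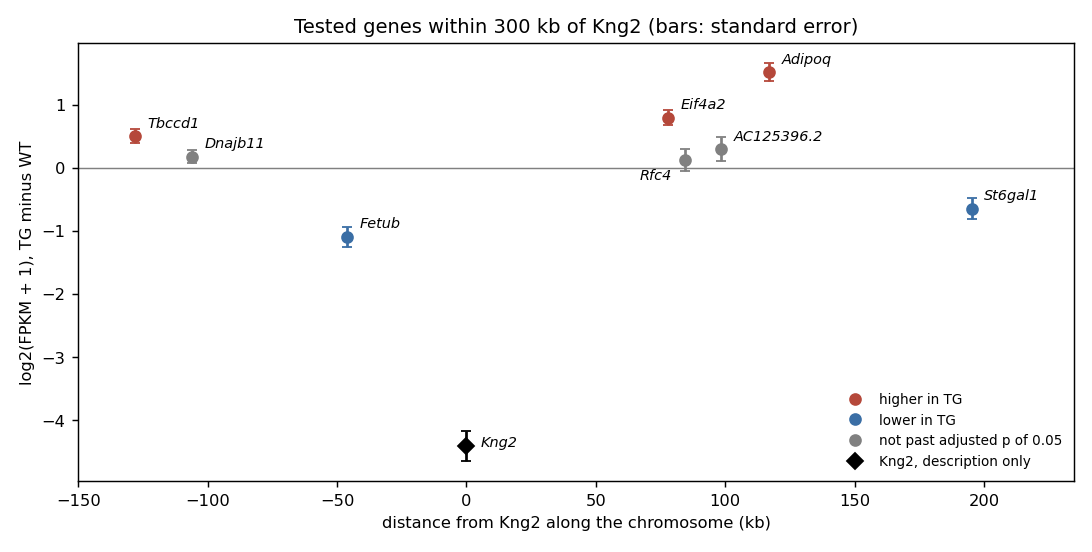
Log2 change (TG minus WT) of the 8 tested genes within 300 kb of Kng2 against their distance from it in kb, with limma's standard error; the black diamond is Kng2, shown as a description with the SE of its difference. Kng2 stands at -4.41, while its tested neighbours lie between -1.10 (Fetub) and 1.51 (Adipoq).

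The other genes of both pathways were followed in 6 lists, which together hold 81 genes, 80 of them in the table under the symbol listed and 58 tested. Of the 58, 16 rose, 15 fell and 27 did not pass, so 53.4% were called against 44.1% of all tested genes, and their median log2 change was 0.13 against 0.01. The lists were chosen with earlier results of these data known, so nothing is read from this difference in share or median. The split moved to 33 higher and 9 lower after division by all recovered reads, a scaling under which 79.3% of all calls were higher in TG, against 50.6% as deposited. These settings move all genes together, so changes below are on the scale as deposited.

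The kallikreins of the list were barely detected: plasma kallikrein (Klkb1) had 13 reads over the TG libraries and 37 over the WT libraries, and Klk1 (tissue kallikrein) had 0 in both. Other kallikrein genes were not looked up. Factor XII (F12) had 0 reads in TG and 3 in WT, and F11 (factor XI) had 0 in both. Of 15 genes of kinin formation and regulation 7 were tested, of which 2 rose and 3 fell, with a median log2 change of 0.29. Serping1, which encodes the C1 inhibitor, the main brake on plasma kallikrein, rose to 213.2 ± 38.2 FPKM in TG, against 30.1 ± 8.48 FPKM in WT, a log2 change of 2.81 (SE 0.202, adjusted p = 8.23e-06). The C1 inhibitor also blocks complement proteases. Cpd, a carboxypeptidase, rose by 0.96. Plaur, the urokinase receptor that takes part in binding kininogen to cells, fell to 1.40 ± 0.679 FPKM in TG, against 13.0 ± 6.16 FPKM in WT, a log2 change of -2.48 (SE 0.328, adjusted p = 0.00028). Cpn2, the regulatory subunit of the plasma carboxypeptidase that trims kinins, fell by 0.85, and C1qbp, a mitochondrial protein that can also hold kininogen at the cell surface, fell by 0.75, a call lost after division by all recovered reads (adjusted p = 0.192) and with voom (0.163).

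Renin (Ren1) was listed at 0 in all libraries, as were Agtr1b, Mas1, Mrgprd, Ctsg and Cyp11b2. Of 18 genes of angiotensin enzymes and receptors 10 were tested, of which 2 rose, 2 fell and 6 missed the threshold; the median log2 change was 0.40. Enpep, aminopeptidase A, which turns angiotensin II into angiotensin III, averaged 8.23 ± 0.726 FPKM in TG and 4.91 ± 0.897 FPKM in WT, a rise of 0.65 (SE 0.126, adjusted p = 0.00255). Rnpep, aminopeptidase B, rose by 0.44 (adjusted p = 0.0154), a call that missed the threshold without TG 2 (adjusted p = 0.0501). Ctsd, the lysosomal protease cathepsin D, which can cut angiotensinogen in vitro, fell by 0.49 (adjusted p = 0.0125), a call lost after division by all recovered reads (adjusted p = 0.681) and with voom (0.697); its sign turned with quantile normalisation (0.10). Agtrap, which encodes a protein that binds the angiotensin II receptor and draws it into the cell, fell by 0.42 (adjusted p = 0.0312), a call lost without TG 1, TG 2, TG 5, WT 1 or WT 5 (adjusted p = 0.0606 to 0.0905), and after division by all recovered reads (0.443) or with voom. Without WT 5, 5 genes of the list rose, and without TG 2 only 1.

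All 6 peptidases that act on peptides of both systems were tested; 1 rose and the other 5 missed the threshold, and the median log2 change was 0.12. Nln, neurolysin, which cuts bradykinin and angiotensin I, rose in TG: it averaged 9.54 ± 0.214 FPKM in TG and 3.12 ± 0.439 FPKM in WT, a log2 change of 1.36 (SE 0.103, adjusted p = 1.05e-05). Its close relative Thop1, thimet oligopeptidase, averaged 3.35 ± 0.336 FPKM in TG and 4.93 ± 1.26 FPKM in WT and did not pass (log2 change -0.42, adjusted p = 0.0563), but passed without WT 1 (adjusted p = 0.00791). Mme, neprilysin, did not pass either (0.33, adjusted p = 0.0670) and passed without WT 3 (adjusted p = 0.0291). It also passed with upper quartile scaling (limma adjusted p = 0.0267) and quantile normalisation (0.0207). Division by recovered reads outside the mitochondrial chromosome (0.0361), division by all recovered reads (0.00272) and voom (0.00139) gave the call too. Prcp (0.19), Prep (0.05) and Ece1 (-0.14) did not pass.

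**Figure D4:**
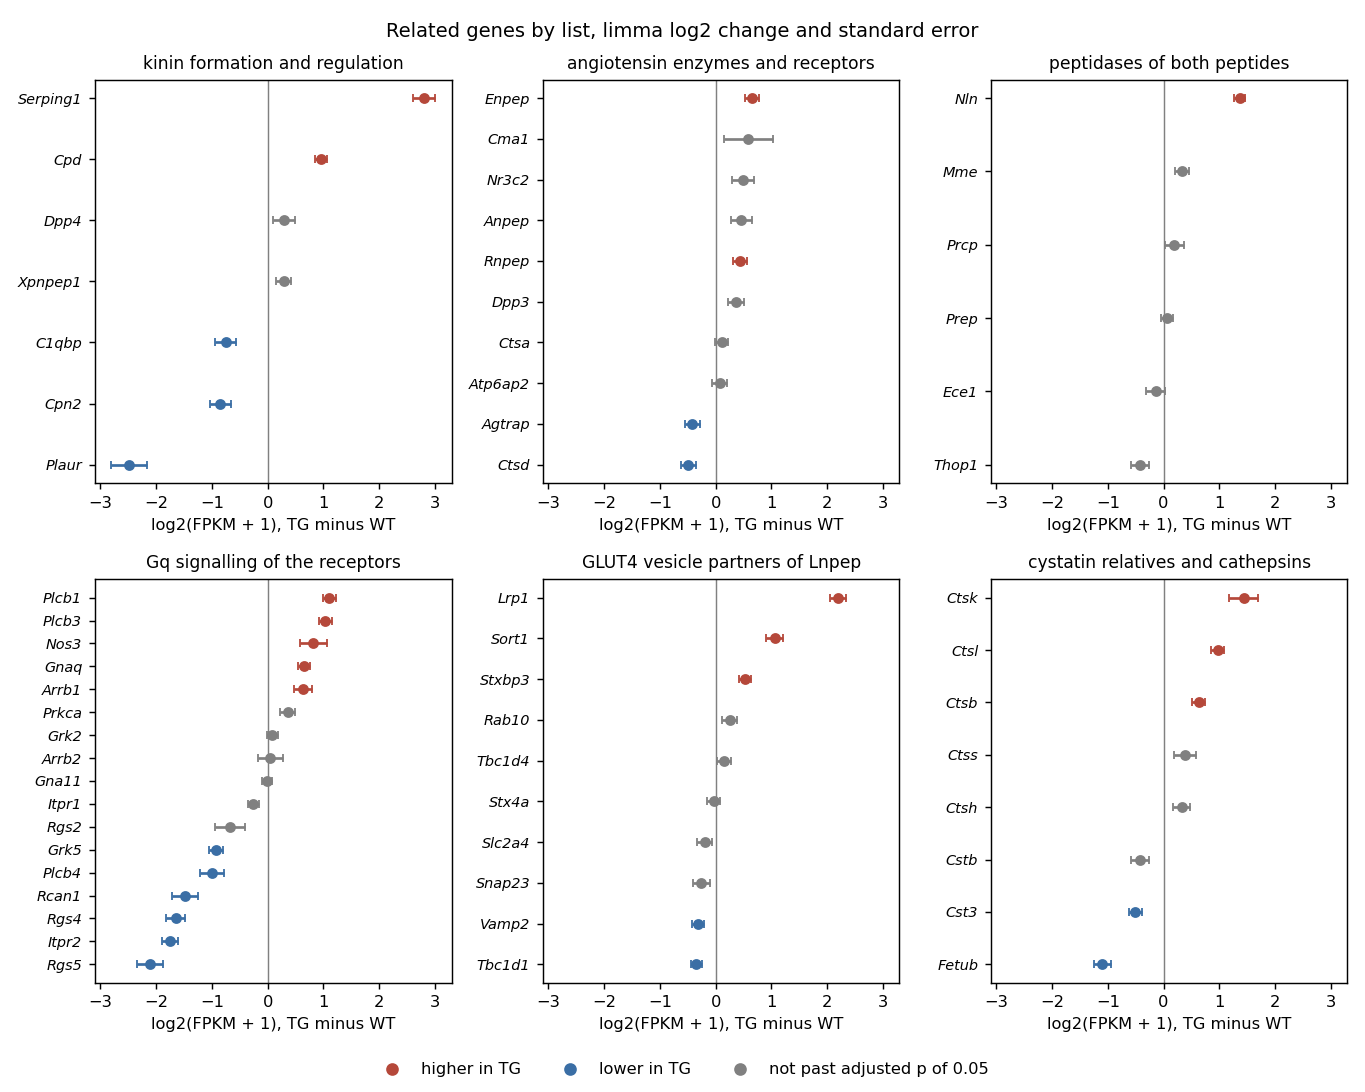
Log2 change (TG minus WT) and limma's standard error of the 58 tested genes of the 6 lists, 1 panel per list, coloured by whether they passed an adjusted p of 0.05. Serping1 (2.81) and Lrp1 (2.20) lie farthest to the right, and Plaur (-2.48) and Rgs5 (-2.11) farthest to the left.

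Both bradykinin receptors and the Agtr1a receptor signal mainly through Gq, phospholipase C and calcium release. Of 20 genes listed for this route 17 were tested, of which 5 rose, 6 fell and 6 missed the threshold; the median log2 change was -0.01. The phospholipases Plcb1 (1.10, adjusted p = 7.36e-05) and Plcb3 (1.03), the G protein alpha subunit Gnaq (0.66) and the arrestin Arrb1 (0.63) rose, and so did Nos3, the endothelial nitric oxide synthase (0.82, adjusted p = 0.0215), whose groups overlapped and whose call was lost without TG 2, TG 3, WT 2 or WT 3 (adjusted p = 0.0505 to 0.0586). Nos3 rose while all 7 endothelial markers fell. Plcb4, another phospholipase of the list, fell to 2.70 ± 0.218 FPKM in TG, against 6.71 ± 2.83 FPKM in WT. Its log2 change was -0.998 (SE 0.211, limma adjusted p = 0.00412). Rcan1, also of the list, averaged 11.5 ± 1.14 FPKM in TG and 35.7 ± 12.6 FPKM in WT. Its log2 change was -1.48 (SE 0.230, limma adjusted p = 0.000733). The calcium release channel Itpr2 fell by 1.75, to 2.16 ± 0.353 FPKM in TG, against 9.74 ± 1.82 FPKM in WT (adjusted p = 1.60e-05). Rgs5 and Rgs4, which shorten Gq signals, fell by 2.11 and 1.65, and the receptor kinase Grk5 fell by 0.92. Rgs5 is also abundant in pericytes, and 5 of the 6 tested smooth muscle and pericyte markers fell, with sums of 17.8 to 28.3 FPKM in TG and 20.1 to 30.8 FPKM in WT, while Cspg4 rose by 1.88; their part in the level of Rgs5 was not tested.

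Lnpep was set beside 10 proteins that travel with it in GLUT4 vesicles or steer them, all tested: 3 rose, 2 fell and 5 missed the threshold, and the median log2 change was 0.06. The vesicle cargo receptors Lrp1 and Sort1 rose. Lrp1 averaged 52.7 ± 8.68 FPKM in TG and 10.7 ± 1.69 FPKM in WT, a log2 change of 2.20 (SE 0.145, adjusted p = 5.43e-06), and Sort1 averaged 34.4 ± 3.89 FPKM in TG and 16.1 ± 3.14 FPKM in WT, a log2 change of 1.06 (SE 0.154, adjusted p = 0.000504). Stxbp3, a regulator of vesicle fusion, rose by 0.53. Tbc1d1, a Rab GTPase-activating protein, fell by 0.34 (adjusted p = 0.0141). This call was lost when FPKM were divided by all recovered reads (adjusted p = 0.546), with voom (0.525), with the replicate number as a block (0.0514) and without WT 2 and TG 5 (0.0867). Vamp2, the vesicle fusion protein, fell by 0.31 (adjusted p = 0.0432), but its sign turned after division by all recovered reads (0.081) and with voom (0.090), and the call was lost without TG 1, TG 3, TG 5, WT 2, WT 3 or WT 5 (adjusted p = 0.0548 to 0.131). Rab10, the small GTPase on these vesicles, did not pass (0.25, adjusted p = 0.150) but passed without WT 3 (adjusted p = 0.0247).

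Kininogens also carry cystatin domains that inhibit cysteine cathepsins, and of 12 cystatin relatives and cathepsins 8 were tested: 3 rose, 2 fell and 3 missed the threshold, and the median log2 change was 0.35. The cathepsins Ctsk, Ctsl and Ctsb rose. Ctsl averaged 48.3 ± 6.88 FPKM in TG and 24.0 ± 1.38 FPKM in WT, a log2 change of 0.97 (SE 0.115, adjusted p = 0.000143), Ctsk rose by 1.44 and Ctsb by 0.63. Macrophages are rich in cathepsins, and 4 of 6 macrophage markers rose, with sums of 34.6 to 48.6 FPKM in TG and 22.0 to 31.5 FPKM in WT; their part in the cathepsin levels was not tested. Fetub, described above among the neighbours of Kng2, fell, and so did Cst3, cystatin C, by 0.51 (adjusted p = 0.00632), a call lost when FPKM were divided by all recovered reads (adjusted p = 0.597), with voom (0.597) and without WT 2 and TG 5 (0.0621); its sign turned with quantile normalisation (0.32). Without WT 5, 5 genes of the list rose. Hrg, another plasma protein with cystatin domains, which lies 24.2 kb from Kng2, was listed at 0 in all libraries.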

How the data were processed

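RNA of brown adipose tissue from 4 TG and 4 WT mice was sequenced. TruSeq libraries were built from 1 ug of TRIzol-extracted RNA of frozen tissue, per the labels' protocols. The submitters' processing notes name featureCounts 1.5.0-p3, HISAT2 2.0.5, bcl2fastq and the build mm10, with no annotation release or strand setting. The authors deposited FPKM for 54532 genes; how they set the divisor per library is not stated. Multiplied by gene length, the FPKM of a library came in whole multiples of 1 step, so reads were recovered by division. Their sum was 0.822 to 0.883 of that divisor in TG and 1.02 to 1.22 of it in WT, so the FPKM hold a scaling beyond the total. Intervals and floors cover counting error only.

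Columns were matched to mice by name, and no sample was left out. The labels give no batch, litter or day, and p-values measure the spread between mice. Log2(FPKM + 1) of genes that reached 0.5 FPKM in 4 or more libraries was fitted with limma 3.58.1 in R 4.3.3 (intensity trend, two-sided, Benjamini-Hochberg at 0.05 over all tested genes, no fold threshold). The procedure was run on simulated data in which few genes changed and values were scaled by the library total. These data differ from that in both respects, so the simulation does not vouch for the calls here. The members and the lists were chosen with earlier results of these data known, so members carry no p and lists no set test. The genes named are the 9 members, up to 6 tested genes with the lowest p per list and those that make up counts of 5 or fewer, the tested genes within 300 kb of Kng2, the 3 nearest profiles of 4 members, Clcf1 and the cell type markers. Klkb1, F12, Klk1, F11, Ren1, Agtr1b, Mas1, Mrgprd, Ctsg, Cyp11b2, Hrg, Plcb4 and Rcan1 were named after their values were seen. Alternatives covered the pseudocount, filter, scaling, variance model, replicate number and left-out libraries. Sequences are from GENCODE M21 and RefSeq; figures were drawn with matplotlib 3.10.9.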

Additional observations from a re-analysis of the deposited data

Results flagged for a closer look

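In each genotype of 4 libraries, the highest and lowest value were set against the other 3 for 55 genes; 6 of 108 groups held a library whose gap to the nearest of the others was too large a part of the group's range by Dixon's test. Chance flags about 1 in 20 groups. Of the 6, 4 are of genes close to 0 reads. Kng1 had 0.0403 FPKM in TG 5, on 3 reads, and 0 in the other TG libraries. Bdkrb1 had 0.0292 FPKM in TG 1, on 1 read, and 0.122 FPKM in WT 5, on 2 reads, with 0 in the other libraries of each genotype. Bdkrb2 had 0.157 FPKM in WT 1, on 7 reads, and up to 0.0198 FPKM in the other WT libraries. Anpep, aminopeptidase N, had 3.35 FPKM in TG 1, against 2.07 to 2.17 FPKM in the other TG libraries. Plcb3 had 7.88 FPKM in WT 1, against 5.64 to 5.91 FPKM in the other WT libraries.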

How the results depend on the processing

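The log2 difference of Kng2 kept its sign in all 18 alternatives, from -5.51 with a pseudocount of 0.1 and -5.27 with voom on recovered reads to -4.11; leaving out single libraries gave -4.55 to -4.30. Both exceptions remove or shrink the pseudocount. Agt ran from 0.61 to 1.95, Agtr1a from -1.10 to -0.39, Lnpep from 0.27 to 0.91 and Ace from -0.37 to 0.31. Over all genes, 2788 were higher and 2725 lower in TG. Division by all recovered reads gave 5536 and 1442, voom 5635 and 1445, and leaving out WT 2 and TG 5 gave 1827 and 1907. The first 2 move the median of all genes to 0.32 and 0.45 (log2). Near Kng2, the 3 higher genes became 5 without a filter and 5 after division by all reads, and the 2 lower became 1 after that division, 1 with voom and 1 without WT 2 and TG 5. Of the pathway genes, 16 higher became 33 (all reads) and 34 (voom), and 15 lower became 9 and 9. Reversed values were Cst3 (0.32) and Ctsd (0.10) with quantile normalisation, Ece1 (0.24) and Vamp2 (0.081) with all reads and with voom (0.27 and 0.090), and Prep (-0.011) without WT 2 and TG 5; the cause was not tested. For 46 other named genes, Plcb4 and Rcan1 not among them, 744 of 828 values kept direction and side of the threshold, 44 lost the call, 33 gained it and 7 reversed. Calls gained on leaving out 1 library, beyond those given above, were Anpep, Cstb and Dpp3 without WT 5 (adjusted p = 0.0304, 0.0248 and 0.0483), Dpp3 without WT 2 (0.0421) and Xpnpep1 without WT 3 (0.0394), all by limma. Mice with the same number did not deviate together (correlations of -0.238 to 0.037), so no pairing by number was seen. So few pairs cannot exclude a weak one. With the replicate block, 2389 genes were higher and 2458 lower. Depth limits Kng1, Bdkrb1, Bdkrb2 and Agtr2, at 0 to 7 reads a library.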
